A study of Mus musculus with 18 samples.

Results

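The CC chemokines described here are 10 ligand genes of mouse lung neutrophils, namely Ccl2, Ccl3, Ccl4, Ccl6, Ccl7, Ccl8, Ccl9, Ccl12, Ccl17 and Ccl22. They were taken by gene name from a count table of 40481 gene IDs, with earlier results of these data known. All 10 had enough reads to be tested. The neutrophils were live CD45+ CD11b+ Ly6G+ cells sorted from digested lungs of C57BL/6 mice and divided by the surface protein CD101, which marks mature neutrophils. Mice were wild type (WT) or lacked a working Cybb gene, labelled CGD/CYBB KO, a model of chronic granulomatous disease in which phagocytes cannot make an oxidative burst. The 6 groups of 3 libraries were WT and CGD naive CD101pos cells, WT and CGD CD101pos cells taken 24 hours after 20 µg of intranasal zymosan (a yeast cell wall preparation), and WT and CGD CD101neg cells taken at the same time after zymosan. No naive CD101neg group was analysed here. Sex and age went with treatment, since zymosan was given to females of 13 weeks and the naive animals were males of 12 weeks, and an effect of zymosan cannot be told apart from one of sex or age. The labels give 3 replicates in each group without saying that they were separate mice, so the p-values rest only on the spread among the samples as labelled, and that spread may be technical.

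Chemokines are small secreted proteins that draw leukocytes along a gradient by binding G protein-coupled receptors, and the CC class is named for a pair of adjacent cysteines. In the inflamed lung, CC ligands recruit monocytes, macrophage precursors, dendritic cells, lymphocytes and eosinophils, and most ligands share receptors with others. Activated neutrophils are a known source of Ccl3 and Ccl4, whereas Ccl2, Ccl7, Ccl8 and Ccl12 are better known from monocytes and macrophages, and Ccl17 and Ccl22 from dendritic cells and macrophages. In mice the genes lie in clusters, so that neighbours are often close relatives.

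Libraries held 33.7 to 67.9 M gene counts. As a check of the labels, Cybb was at 50.8 to 59.5 CPM (counts scaled to a common library total) in CGD naive libraries against 240 to 283 in WT naive libraries, and in the zymosan sorts at 29.6 to 49.8 CPM in CGD against 126 to 274 in WT libraries. Neutrophil markers summed to 19348 to 134397 CPM per library, and none of the 12 was at 0 throughout a group. Cd101 RNA was lower in CD101neg than in CD101pos cells of WT mice (log2 fold change -1.28 ± 0.23 SE, adjusted p = 0.0148) and of CGD mice (-0.77 ± 0.22, adjusted p = 0.0442). The CGD CD101pos cells after zymosan, at 95.9 to 112 CPM, were below the WT CD101neg cells, at 156 to 185 CPM. In bulk RNA of this kind, fewer cells of a type and less RNA per cell cannot be told apart.

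The 10 chemokines differed widely in level. Levels between genes are compared here as CPM per kilobase of exon. In WT naive cells, Ccl6 was the highest at 2447 ± 494 (SD, n = 3), followed without overlap by Ccl4 at 408 ± 108 and Ccl3 at 151 ± 24.6, and the next gene, Ccl9, was at 9.53 ± 1.04. Ccl6, Ccl4 and Ccl3 were the 3 highest in every group, in that order in CGD naive cells too, where CGD naive replicate 2 made them overlap. After zymosan Ccl4 held the first place, with 6415 ± 1034 in CGD CD101pos cells and 20303 ± 6229 in CGD CD101neg cells, both apart from the next gene. In WT zymosan cells Ccl4 was also first, at 1999 ± 1009 in CD101pos and 6124 ± 3543 in CD101neg cells, but its libraries overlapped those of the gene ranked next. Ccl9 ranked next in all 6 groups, with means between 9.53 and 127, and overlapped the gene below it in all but WT naive and CGD CD101neg cells. The order among Ccl2, Ccl7, Ccl8, Ccl12 and Ccl17 varied between groups and most neighbours in it overlapped. Ccl22 was the lowest in 5 groups (0.54 to 7.64), and Ccl8 was the lowest in CGD CD101neg cells, at 0.93 ± 0.78, where it overlapped Ccl22.

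The 10 genes together took 0.477 to 0.891% of all counts in naive libraries and up to 2.14% in a CGD CD101neg library. Most of that difference was in Ccl3 and Ccl4. Their summed share was 0.0390 to 0.0563% in WT naive, 0.0487 to 0.415% in CGD naive, 0.0723 to 0.321% in WT CD101pos and 0.405 to 0.676% in CGD CD101pos zymosan libraries, and it reached 0.239 to 1.18% in WT and 0.902 to 1.89% in CGD CD101neg libraries. Ccl2, Ccl7, Ccl8, Ccl12, Ccl17 and Ccl22 summed to 8.01 to 12.6 CPM in WT naive libraries, 74.6 to 89.2 CPM in WT and 39.6 to 60.6 CPM in CGD CD101neg libraries, and 164 to 235 CPM in CGD CD101pos zymosan libraries, where they were highest.

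**Figure D1:**
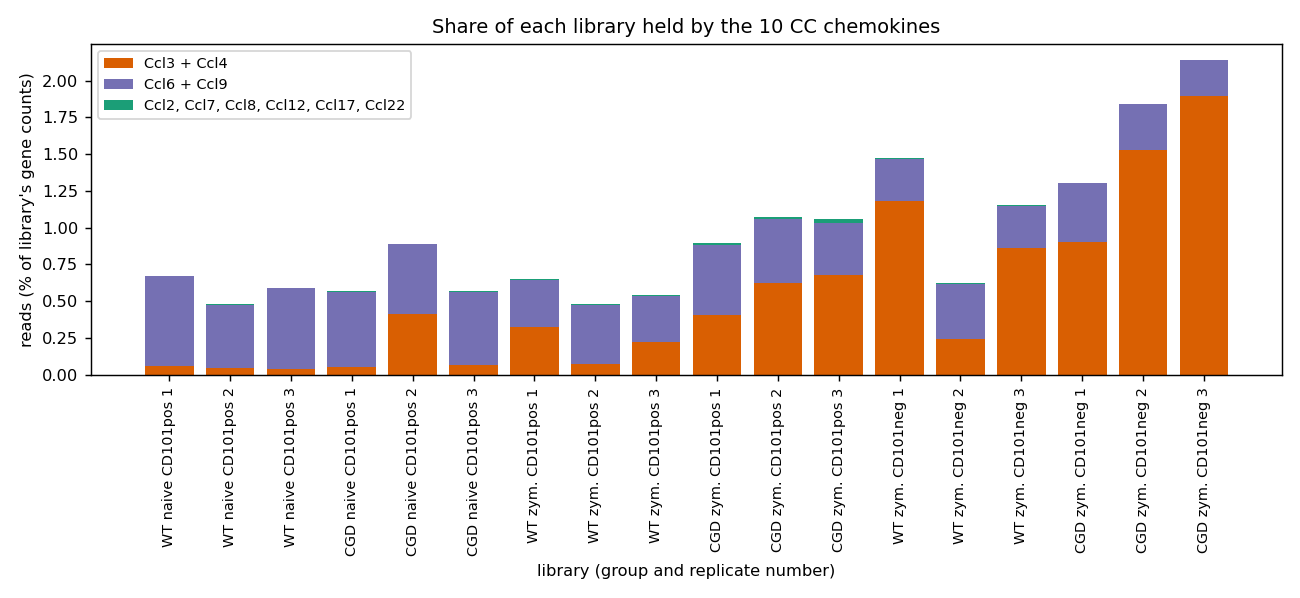
Percent of each library's gene counts held by Ccl3 with Ccl4, by Ccl6 with Ccl9, and by the other 6 CC chemokines, with 1 stacked bar for each of 18 libraries. Ccl3 and Ccl4 make up most of the bar in the CGD CD101neg libraries, up to 1.89%, and the other 6 genes are too few reads to be seen in most bars.

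The values of each gene in each library are given below in CPM scaled with TMM factors. Differences are log2 fold changes with their SE, and a gene passed at an adjusted p under 0.05 by edgeR's quasi-likelihood test with Benjamini-Hochberg adjustment over 16575 genes. Zymosan against naive, a comparison that also differs in sex and age, gave the most calls. In WT CD101pos cells 6 of the 10 rose (Ccl2, Ccl3, Ccl7, Ccl8, Ccl9 and Ccl17) and none fell, with a median log2 fold change of 2.41 against -0.03 over all genes, of which 3.79% passed. In CGD CD101pos cells 8 rose (Ccl2, Ccl4, Ccl7, Ccl8, Ccl9, Ccl12, Ccl17 and Ccl22) and none fell, with a median of 2.56 against 0.00 over all genes, of which 12.8% passed. The difference between these responses (genotype by zymosan) was tested directly: no chemokine passed with edgeR or with DESeq2, 1 (Ccl12, 2.20 ± 0.70, adjusted p = 0.237) had an unadjusted p under 0.05, and 0.32% of all genes passed. The WT count was 3 without WT naive replicate 1, 2 without WT naive replicate 2, 3 without WT naive replicate 3 and 3 without WT zymosan CD101pos replicate 1.

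Between genotypes, chemokine RNAs that passed were higher in CGD CD101pos cells. After zymosan 5 rose in CGD against WT CD101pos cells (Ccl2, Ccl7, Ccl9, Ccl12 and Ccl17) and none fell, with a median of 1.64 against 0.02 over all genes, of which 5.3% passed. All 3 CGD libraries lay above all 3 WT libraries for 8 of the 10 genes, all but Ccl6 and Ccl22, where 12% of all genes tested had their CGD libraries all above the WT ones. That count of 5 was 2 without WT CD101pos replicate 2, 1 without WT CD101pos replicate 3, 2 without CGD CD101pos replicate 2 and 3 without CGD CD101pos replicate 3. In CD101neg cells the calls went both ways: Ccl9 was higher in CGD cells, Ccl7 and Ccl8 were lower, the median was 0.27 against -0.08 over all genes, and 12.9% of all genes passed. In naive cells only Ccl2 passed among the 10, where 0.127% of all genes passed, with a median of 0.91 over the 10 and 0.00 over all genes. Without WT naive replicate 1, 2 or 3, or CGD naive replicate 2 or 3, the naive count was 0.

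The CD101neg and CD101pos cells of the same genotype differed in another set. In CGD mice 4 of the 10 were lower in CD101neg cells (Ccl7, Ccl8, Ccl12 and Ccl17) and none higher, with a median of -1.40 against -0.02 over all genes, of which 7.35% passed. That count depended on the fit: with only these groups fitted 7 passed, the added ones being Ccl3 (1.65, adjusted p = 0.00463) and Ccl4 (1.65, adjusted p = 0.00776), which were higher in CD101neg cells, and Ccl22 (-1.91, adjusted p = 0.00677), which was lower. With genotype and number as a replicate block more passed, among them Ccl3, Ccl4 and Ccl9 as higher in CD101neg cells. In WT mice none passed with edgeR or with DESeq2, 4 had an unadjusted p under 0.05, the median was 0.49 against 0.02 over all genes, and 0.44% of all genes passed. The WT sorts were taken as paired by replicate number, from correlations in these data and not from a label. With genotype and number as a replicate block 5 of the 10 were higher in WT CD101neg cells, namely Ccl2 (0.72, adjusted p = 0.00395), Ccl3 (2.06, 2.94e-08), Ccl4 (1.54, 2.49e-06), Ccl7 (0.71, 0.0145) and Ccl9 (0.92, 0.00045). Without WT CD101neg replicate 2 the unblocked count was 1, Ccl9 (1.32, adjusted p = 0.0463). The genotype by subset interaction, which is the CGD difference minus the WT difference, was passed by 3 chemokines, all negative (Ccl7, Ccl8 and Ccl12), with a median of -1.48 against -0.01 over all genes, of which 0.851% passed. With the block by genotype and number Ccl2 (-1.70, adjusted p = 6.36e-05), Ccl17 (-1.92, adjusted p = 0.000941) and Ccl22 (-1.65, adjusted p = 0.00249) passed the interaction as well. Same-numbered CGD sorts were each best matched by their own number, with lower correlations of deviations than the WT sorts (r = 0.236, 0.0245 and 0.260).

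**Figure D2:**
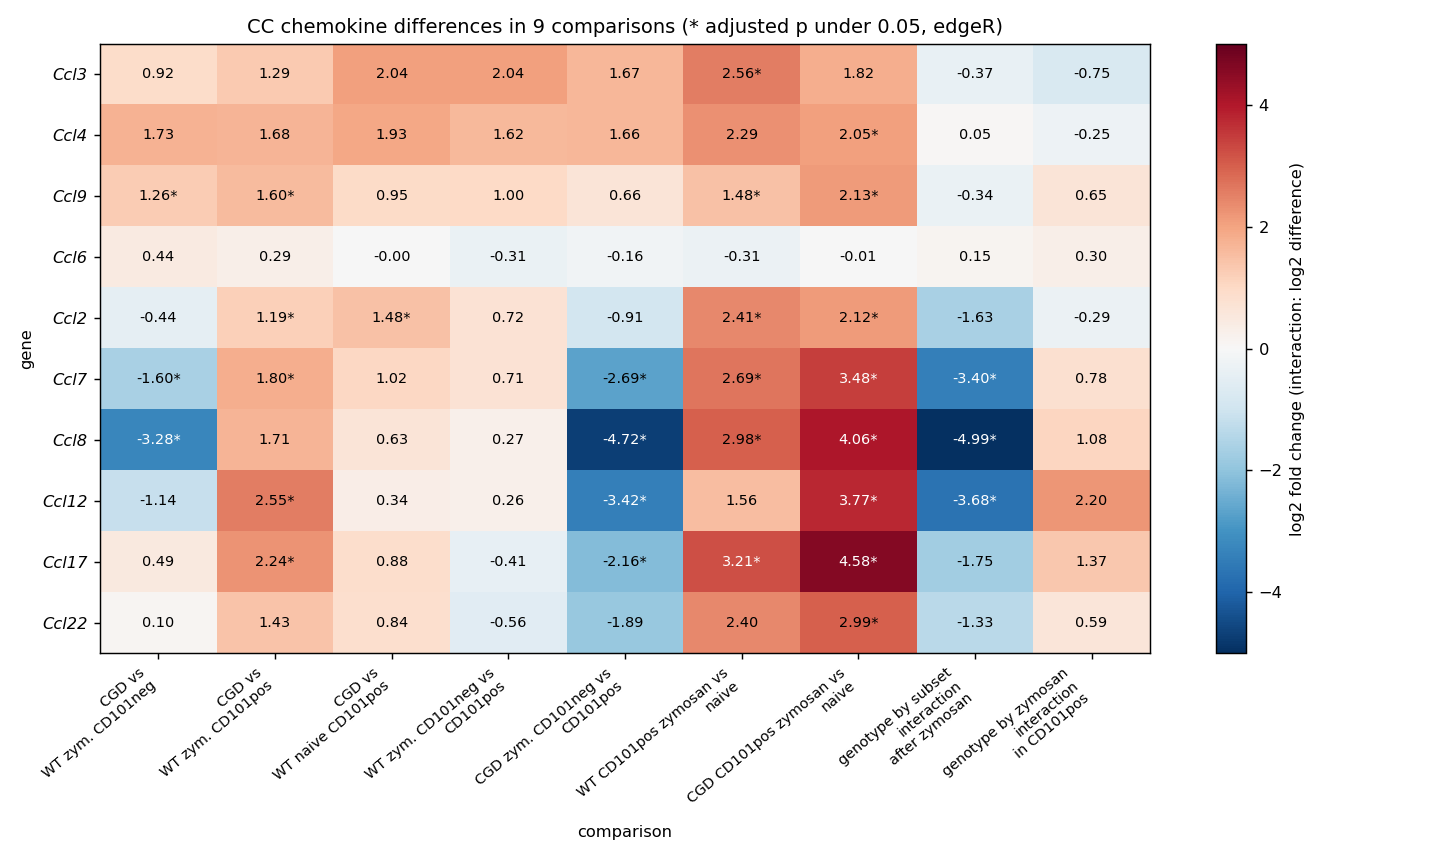
Log2 fold change of each CC chemokine (rows) in 7 pairwise comparisons and 2 interactions (columns), the first group named being compared with the second, with an asterisk where the adjusted p from edgeR is under 0.05. Ccl7, Ccl8 and Ccl12 are positive in CGD against WT CD101pos cells and negative in CGD CD101neg against CD101pos cells, while Ccl3, Ccl4 and Ccl9 are positive in all 7 pairwise columns.

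Ccl3 (ENSMUSG00000000982, GRCm38 chr11:83647844-83649355, minus strand) and Ccl4 (ENSMUSG00000018930, chr11:83662584-83664683, plus strand) are the macrophage inflammatory proteins 1 alpha and 1 beta. Both attract monocytes, macrophages and T cells, and Ccl3 binds CCR1. They are transcribed away from each other from neighbouring positions.

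Ccl3 was at 137, 106 and 103 CPM in WT naive replicates 1, 2 and 3 and at 126, 1095 and 204 CPM in CGD naive replicates 1, 2 and 3. In CD101pos cells after zymosan it was at 957, 244 and 851 CPM in WT and 1555, 1694 and 1766 CPM in CGD libraries. In CD101neg cells it was at 3829, 1092 and 3523 CPM in WT and 3974, 5495 and 6491 CPM in CGD libraries. CGD naive replicate 2 stood above the other naive libraries, and replicate 2 was the lowest WT library in both zymosan sorts. All 3 libraries of a CGD zymosan group lay above all 3 of its WT counterpart, but the gaps did not pass (CD101pos 1.29 ± 0.64, adjusted p = 0.303, and CD101neg 0.92 ± 0.63, adjusted p = 0.368).

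Ccl4 followed the same order at higher counts. It was at 349, 248 and 211 CPM in WT naive, 277, 2353 and 447 in CGD naive, 1894, 590 and 1474 in WT CD101pos zymosan and 3478, 4804 and 4421 in CGD CD101pos zymosan libraries. In CD101neg cells it was at 6040, 1470 and 4615 CPM in WT and 8877, 14413 and 16910 CPM in CGD libraries. The CGD and WT zymosan groups again did not overlap in either sort, and again neither gap passed (CD101pos 1.68 ± 0.65, adjusted p = 0.162, and CD101neg 1.73 ± 0.65, adjusted p = 0.0889).

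Ccl3 was 5.92-fold higher in zymosan than naive WT CD101pos cells (2.56 ± 0.67, adjusted p = 0.0387). That call was lost without WT naive replicate 1, 2 or 3 or WT zymosan CD101pos replicate 1 or 3 (adjusted p = 0.101, 0.154, 0.147, 0.11 and 0.119). In CGD CD101pos cells the Ccl3 difference was 1.82 ± 0.65 (adjusted p = 0.0765), and without CGD naive replicate 2 it was 3.34 (adjusted p = 0.000984). Ccl4 rose in CGD CD101pos cells by 4.13-fold (2.05 ± 0.65, adjusted p = 0.0481), and the call was lost without CGD naive replicate 1 or 3 or CGD zymosan replicate 1, 2 or 3 (adjusted p = 0.141, 0.147, 0.0643, 0.126 and 0.0948). Without CGD naive replicate 2, which was the highest naive library, the Ccl4 difference was 3.55 (adjusted p = 0.000733). In WT cells Ccl4 differed by 2.29 ± 0.66 (adjusted p = 0.0645).

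Mean Ccl3 and Ccl4 levels were above those of CD101pos cells of the same genotype in CD101neg cells. In CGD mice the groups did not overlap for either gene, but neither passed without a replicate block (Ccl3 1.67 ± 0.65, adjusted p = 0.127, Ccl4 1.66 ± 0.65, adjusted p = 0.129). In WT mice each CD101neg library was above the CD101pos library of the same number, 3829 against 957, 1092 against 244 and 3523 against 851 CPM for Ccl3, and Ccl3 and Ccl4 passed with the block and not without it (Ccl3 2.04 ± 0.65, adjusted p = 0.239, Ccl4 1.62 ± 0.65, adjusted p = 0.381, without the block). The interaction with genotype did not pass for either gene, and its 95% intervals were wide, from -1.89 to 1.99 around 0.05 for Ccl4 and from -2.31 to 1.57 around -0.37 for Ccl3. The ratio of Ccl4 to Ccl3 counts, a description of each library, was 1.31 to 1.58 in WT CD101neg libraries and 1.73 to 2.84 in the other 15 libraries, and CGD CD101neg libraries were at 2.23 to 2.62.

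Ccl6 (ENSMUSG00000018927, chr11:83587882-83593087, minus strand) and Ccl9 (ENSMUSG00000019122, chr11:83572919-83578636, minus strand) are neighbours that belong to a rodent group of chemokines with an additional pair of cysteines, and both bind CCR1. Their RNAs behaved differently here. Ccl6 was at 2088 to 5728 CPM across the 18 libraries with a median of 3896 CPM, and no group stood apart from the others. It passed in none of the 7 pairwise comparisons, where the largest absolute log2 fold change was 0.44 and the smallest adjusted p was 0.374, and the 95% intervals ran from -0.99 to 1.12. An unchanged level is not shown by these values, but a change of more than that range lies outside the intervals.

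Ccl9 was at 32.1, 25.8 and 29.1 CPM in WT naive, 39.8, 71.9 and 56.3 in CGD naive, 115, 46.9 and 80.9 in WT CD101pos zymosan and 220, 244 and 271 in CGD CD101pos zymosan libraries. In CD101neg cells it was at 266, 81.1 and 138 CPM in WT and 275, 394 and 492 CPM in CGD libraries. Every CGD group lay above its WT counterpart without overlap, although WT CD101neg replicate 1 came close to the lowest CGD library. Ccl9 was higher in CGD than WT CD101pos cells by 3.03-fold (1.60 ± 0.37, adjusted p = 0.0147) and in CGD than WT CD101neg cells by 2.39-fold (1.26 ± 0.36, adjusted p = 0.0287). The first call was lost without WT CD101pos replicate 2 or 3 or CGD CD101pos replicate 2 (adjusted p = 0.0781, 0.0644 and 0.0522). The second was lost without WT CD101neg replicate 2 or 3 or CGD CD101neg replicate 2 or 3 (adjusted p = 0.0898, 0.0993, 0.0765 and 0.104), and scaling by library size alone gave 0.72 (adjusted p = 0.226).

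With zymosan Ccl9 rose 4.38-fold in CGD CD101pos cells (2.13 ± 0.37, adjusted p = 0.000888). It rose 2.79-fold in WT CD101pos cells (1.48 ± 0.37, adjusted p = 0.0273), and that call was lost without WT naive replicate 1, 2 or 3 or WT zymosan replicate 1 or 3 (adjusted p = 0.0719, 0.129, 0.112, 0.115 and 0.0702). In naive cells the genotype difference of 0.95 ± 0.36 did not pass (adjusted p = 0.591).

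Ccl9 is shown with its upstream sequence because it was the only one of the 7 members with a promoter in the reference table that held matches to both the NF-kB and the AP-1 motif, and Nfkb1, which encodes an NF-kB subunit, was higher in CGD cells in the same comparisons. The 160 bases before the RefSeq start (GRCm38.p6 chr11:83578637-83578796, minus strand) are printed 5′ to 3′, with capitals for a TATAAA box with its overlapping match on the other strand, an AP-1 match (TGANTCA) and an NF-kB match.
Ccl9: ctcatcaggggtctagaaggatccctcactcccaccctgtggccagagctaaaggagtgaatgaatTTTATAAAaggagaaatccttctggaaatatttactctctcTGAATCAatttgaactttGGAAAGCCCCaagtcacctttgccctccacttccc
The NF-kB match lay 35 to 26 bases and the AP-1 match 53 to 47 bases before the start. Among 32851 promoters of 250 upstream bases, searched on both strands, 7.25% held an NF-kB match, 6.75% an AP-1 match and 12.4% a TATAAA match. A match is a description of the letters, not evidence of a bound factor. Nfkb1 was higher in CGD than WT cells by 1.05 ± 0.17 in CD101pos (adjusted p = 0.0019) and by 1.56 ± 0.18 in CD101neg cells (adjusted p = 2.22e-05), and Nfkb2 and Rel were higher in CD101neg cells (1.13 ± 0.24, adjusted p = 0.00548, and 1.12 ± 0.22, adjusted p = 0.00304). Fos, which encodes a subunit of AP-1, was lower in CGD cells of both sorts. Of the 20 regulators listed with these genes 4 were higher and 2 lower in CD101neg cells, where 12.9% of all genes passed. In CD101pos cells 1 was higher and 1 lower, where 5.3% passed. A link of these regulators to Ccl9 was not tested.

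Ccl2 (ENSMUSG00000035385, chr11:82035571-82037453, plus strand), Ccl7 (ENSMUSG00000035373, chr11:82045712-82047525, plus strand) and Ccl12 (ENSMUSG00000035352, chr11:82101845-82103400, plus strand) are the monocyte chemoattractant proteins of the mouse and bind CCR2, the receptor by which monocytes leave the marrow. Ccl8 (ENSMUSG00000009185, chr11:82115185-82116799, plus strand), their neighbour, is a ligand of CCR8 in mice.

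Ccl2 was at 5.58, 4.13 and 4.35 CPM in WT naive and 9.05, 19.0 and 11.3 CPM in CGD naive libraries, which did not overlap. After zymosan it was at 29.1, 25.6 and 20.1 CPM in WT CD101pos, 46.8, 54.3 and 69.4 in CGD CD101pos, 45.2, 37.0 and 41.0 in WT CD101neg and 19.2, 32.6 and 39.2 in CGD CD101neg libraries. It was higher in CGD than WT naive cells by 2.80-fold (1.48 ± 0.28, adjusted p = 0.0454). That call was lost without WT naive replicate 1, 2 or 3 or CGD naive replicate 2 or 3 (adjusted p = 0.141, 0.285, 0.23, 0.252 and 0.0718) and when only these groups were fitted (adjusted p = 0.2). In CD101pos cells after zymosan the CGD excess was 2.28-fold (1.19 ± 0.28, adjusted p = 0.016), lost without WT CD101pos replicate 2 or 3 or CGD CD101pos replicate 2 or 3 (adjusted p = 0.0545, 0.0918, 0.0515 and 0.0716).

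Ccl2 was higher in zymosan than naive CD101pos cells, by 5.31-fold in WT (2.41 ± 0.29, adjusted p = 7.04e-05) and 4.33-fold in CGD mice (2.12 ± 0.28, adjusted p = 7.1e-05). Neither call was lost under any alternative or left-out library. CGD CD101neg cells lay below CGD CD101pos cells without overlap (-0.91 ± 0.27, adjusted p = 0.051), whereas WT CD101neg cells lay above WT CD101pos cells (0.72 ± 0.27, adjusted p = 0.354). The interaction was -1.63 ± 0.39 (adjusted p = 0.0554), and it passed without WT CD101pos replicate 1 (adjusted p = 0.0309), CGD CD101pos replicate 1 (0.0499) or WT CD101neg replicate 2 (0.0472). It also passed with DESeq2 (0.00969), without the low-count filter (0.00304), with library size as the only scaling (0.0495) and with the block by genotype and number.

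Ccl7, like Ccl2, was highest in CGD CD101pos zymosan cells. It was at 2.29, 2.03 and 2.63 CPM in WT naive and 3.43, 7.39 and 3.22 CPM in CGD naive libraries. After zymosan it was at 19.0, 13.5 and 12.3 CPM in WT CD101pos, 34.8, 46.9 and 74.5 in CGD CD101pos, 21.6, 29.6 and 22.3 in WT CD101neg and 3.78, 9.08 and 11.3 in CGD CD101neg libraries. The CGD CD101pos libraries were the 3 highest of all 18, and the CGD CD101neg libraries were below every other zymosan library.

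Ccl7 was thus higher in CGD than WT CD101pos cells by 3.48-fold (1.80 ± 0.37, adjusted p = 0.00818, or 0.053 without WT CD101pos replicate 3) and lower in CGD than WT CD101neg cells by 3.04-fold (-1.60 ± 0.37, adjusted p = 0.00863). CGD CD101neg cells had 6.46-fold less than CGD CD101pos cells (-2.69 ± 0.39, adjusted p = 0.00084), and the interaction was -3.40 ± 0.53 (adjusted p = 0.00472). The last 3 calls held under all alternatives and left-out libraries. Ccl7 was higher in zymosan than naive CD101pos cells, by 6.47-fold in WT (2.69 ± 0.39, adjusted p = 0.000544) and 11.1-fold in CGD mice (3.48 ± 0.40, adjusted p = 1.43e-05).

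Ccl8 was at 0.349, 0.310 and 0.837 CPM in WT naive and 1.07, 0.794 and 0.385 CPM in CGD naive libraries. After zymosan it was at 4.92, 3.32 and 3.27 CPM in WT CD101pos, 13.2, 11.7 and 12.9 in CGD CD101pos, 3.78, 7.96 and 2.20 in WT CD101neg and 0.541, 0.834 and 0.0454 in CGD CD101neg libraries. The last of these was 2 counts, the fewest for any member in any library, so the CGD CD101neg mean rests on few reads. CGD CD101neg cells after zymosan were within the range of naive cells or below it, and every other zymosan library was above all naive libraries.

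Ccl8 had the largest difference of the 10 between CGD CD101neg and CD101pos cells, 26.3-fold lower in CD101neg cells (-4.72 ± 0.65, adjusted p = 0.000786). It was also 9.69-fold lower in CGD than WT CD101neg cells (-3.28 ± 0.62, adjusted p = 0.00241), and the interaction was -4.99 ± 0.83 (adjusted p = 0.00769). These 3 calls held under every alternative and without any single library. In CD101pos cells all CGD libraries were above all WT libraries, but the difference of 1.71 ± 0.55 did not pass (adjusted p = 0.0848). Against naive cells, Ccl8 after zymosan was 16.7-fold higher in CGD (4.06 ± 0.62, adjusted p = 0.000248) and 7.90-fold higher in WT CD101pos cells (2.98 ± 0.62, adjusted p = 0.00909). The WT call was lost without WT naive replicate 1 or 2 (adjusted p = 0.0575 and 0.0699).

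Ccl12 was at 1.83, 0.697 and 1.34 CPM in WT naive, 2.71, 1.26 and 0.898 in CGD naive, 6.23, 3.50 and 1.63 in WT CD101pos zymosan and 22.6, 18.9 and 25.0 in CGD CD101pos zymosan libraries. In CD101neg cells it was at 4.15, 7.39 and 2.09 CPM in WT and 1.99, 2.14 and 2.06 CPM in CGD libraries. Only the CGD CD101pos zymosan group stood clear of all the others. Its excess over WT CD101pos cells was 5.84-fold (2.55 ± 0.50, adjusted p = 0.00622), its excess over CGD naive cells 13.6-fold (3.77 ± 0.53, adjusted p = 0.000117), and CGD CD101neg cells had 10.7-fold less (-3.42 ± 0.52, adjusted p = 0.00127). All of these held without any single library.

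The Ccl12 interaction was -3.68 ± 0.70 (adjusted p = 0.0177), and it did not pass without WT CD101pos replicate 2, CGD CD101pos replicate 3, or CGD CD101neg replicate 2 or 3 (adjusted p = 0.0521, 0.0581, 0.0546 and 0.0534). In CD101neg cells the CGD and WT libraries overlapped (-1.14 ± 0.49, adjusted p = 0.136), and in WT CD101pos cells the zymosan difference of 1.56 ± 0.50 did not pass (adjusted p = 0.0979).

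The upstream sequences of Ccl8 and Ccl12 are shown because these neighbours shared the pattern of a peak in CGD CD101pos zymosan cells. The pattern was not particular to them, since mean Ccl2, Ccl7, Ccl17 and Ccl22 were highest in that group too. The 160 bases before each RefSeq start (GRCm38.p6, chr11:82115025-82115184 for Ccl8 and chr11:82101685-82101844 for Ccl12, both plus strand) are printed 5′ to 3′ with the TATAAA box in capitals.
Ccl8: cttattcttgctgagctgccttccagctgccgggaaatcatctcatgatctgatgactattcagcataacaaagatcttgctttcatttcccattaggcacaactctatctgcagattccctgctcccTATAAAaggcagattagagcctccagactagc
Ccl12: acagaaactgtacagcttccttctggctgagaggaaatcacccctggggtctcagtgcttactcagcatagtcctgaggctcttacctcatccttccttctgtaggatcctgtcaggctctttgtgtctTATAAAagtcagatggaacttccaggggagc
The box began 32 bases before the start of Ccl8 and 31 bases before that of Ccl12. Neither held an NF-kB, AP-1, C/EBP (TTGCNNAA) or STAT (TTCNNNGAA) match in 250 upstream bases, which says only that these letters are not in the window. Of all promoters 9.56% held the C/EBP and 7.02% the STAT letters. The promoters of Ccl17 and Ccl22 held no TATAAA match.

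**Figure D3:**
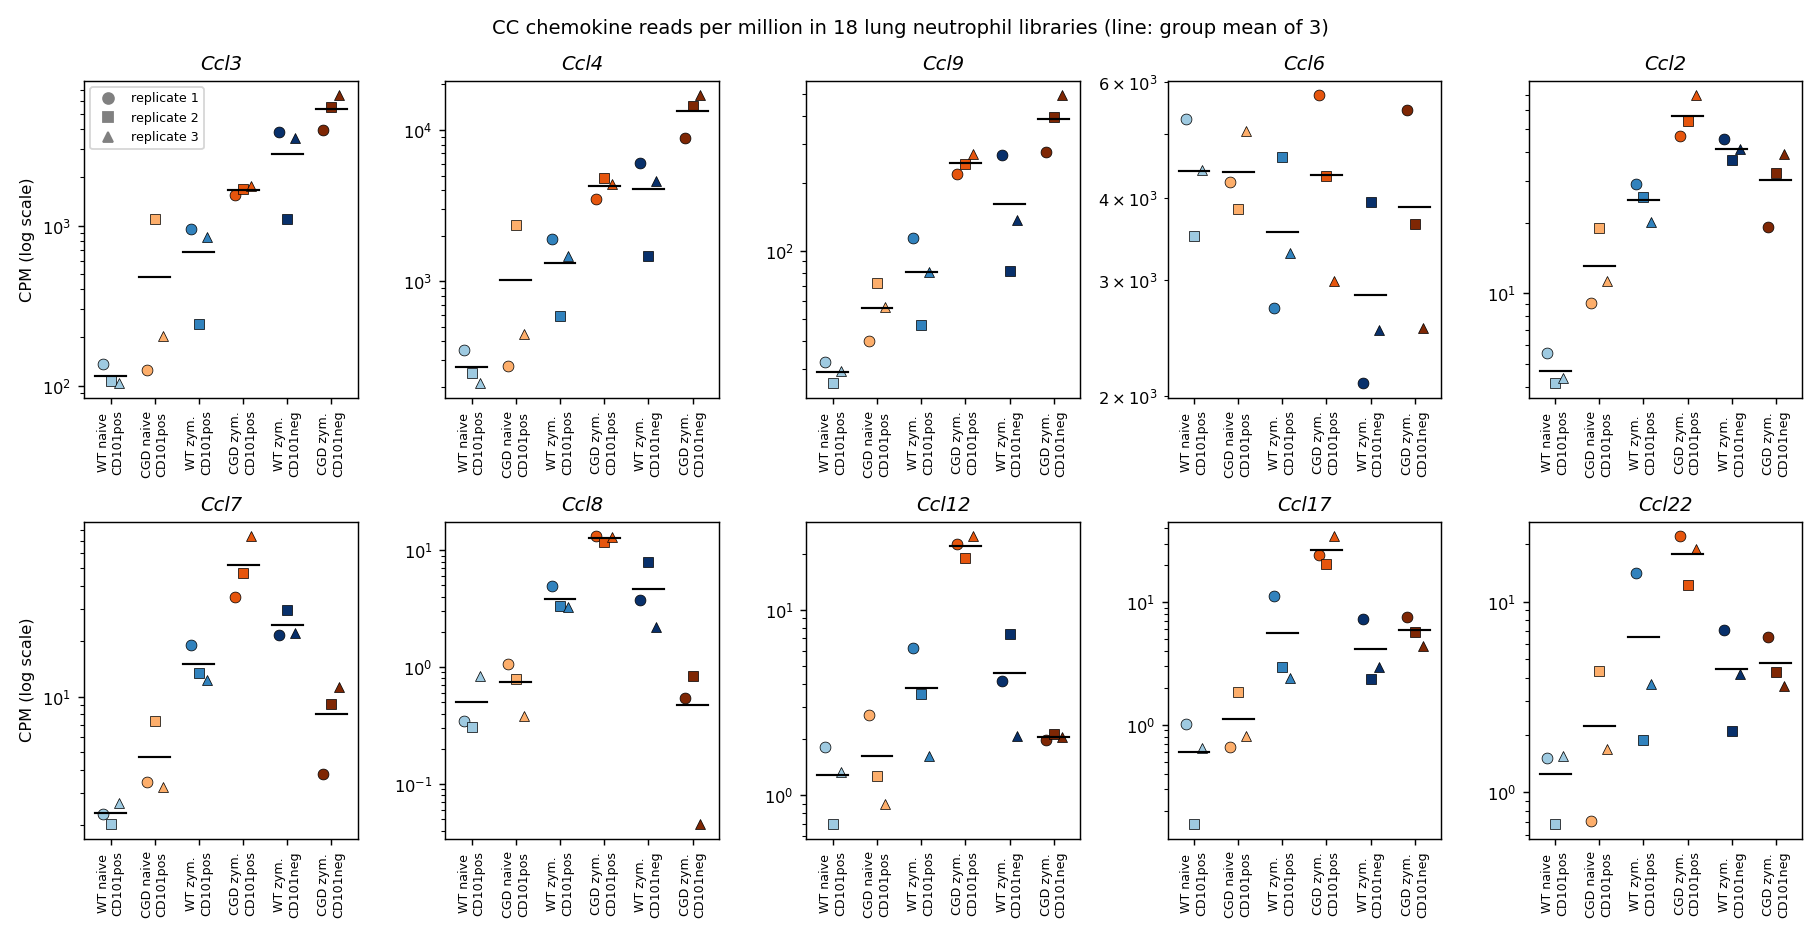
CPM on a log axis for each CC chemokine in 18 libraries, with symbols for replicate numbers 1 to 3, colours for the 6 groups and a line at each group mean. Ccl3, Ccl4 and Ccl9 are highest in CGD CD101neg cells, where Ccl7 is at 3.78 to 11.3 CPM and Ccl8 at 0.0454 to 0.834 CPM, and Ccl12 and Ccl17 peak in CGD CD101pos zymosan cells.

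Ccl17 (ENSMUSG00000031780, chr8:94810453-94812036, plus strand) and Ccl22 (ENSMUSG00000031779, chr8:94745590-94751699, plus strand) lie close together on chromosome 8 and bind CCR4, a receptor of helper and regulatory T cells. Ccl17 was at 1.01, 0.155 and 0.646 CPM in WT naive and 0.664, 1.84 and 0.818 CPM in CGD naive libraries. After zymosan it was at 11.3, 2.97 and 2.40 CPM in WT CD101pos, 24.5, 20.4 and 34.6 in CGD CD101pos, 7.26, 2.35 and 2.95 in WT CD101neg and 7.62, 5.76 and 4.38 in CGD CD101neg libraries. WT replicate 1 was the highest WT library in each zymosan sort, and the 3 CGD CD101pos libraries were above all others.

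Ccl17 was 23.9-fold higher in zymosan than naive CGD CD101pos cells (4.58 ± 0.69, adjusted p = 0.000248), the largest zymosan difference of the 10. In WT CD101pos cells it was 9.28-fold higher (3.21 ± 0.68, adjusted p = 0.0109). The WT call was lost without WT naive replicate 2 or 3 (2.74, adjusted p = 0.0599, and 3.26, 0.0538) or WT zymosan replicate 1 (2.16, 0.0596). The CGD excess in CD101pos cells was 4.74-fold (2.24 ± 0.61, adjusted p = 0.0397), lost without WT CD101pos replicate 2 or 3 or CGD CD101pos replicate 1, 2 or 3 (adjusted p = 0.172, 0.185, 0.07, 0.083 and 0.127). CGD CD101neg cells had 4.48-fold less Ccl17 than CGD CD101pos cells (-2.16 ± 0.61, adjusted p = 0.0417). That call was lost without any one of the 6 libraries, with adjusted p = 0.0598, 0.0765 and 0.13 for CD101pos and 0.0571, 0.138 and 0.147 for CD101neg replicates 1, 2 and 3.

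Ccl22 was at 1.51, 0.681 and 1.56 CPM in WT naive, 0.706, 4.31 and 1.68 in CGD naive, 14.1, 1.88 and 3.71 in WT CD101pos zymosan and 22.1, 12.3 and 18.9 in CGD CD101pos zymosan libraries. In CD101neg cells it was at 7.13, 2.09 and 4.17 CPM in WT and 6.49, 4.27 and 3.61 CPM in CGD libraries. WT CD101pos replicate 1 overlapped the CGD libraries. Ccl22 passed in 1 comparison, the 7.95-fold rise with zymosan in CGD CD101pos cells (2.99 ± 0.70, adjusted p = 0.00825), which held without any single library. The CGD and WT CD101pos cells differed by 1.43 ± 0.65 (adjusted p = 0.255), or by 2.66 (adjusted p = 0.0232) without WT CD101pos replicate 1.

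The upstream sequence of Ccl17 is shown because Ccl17 and Ccl22 are known targets of IL-4 signalling through STAT6. In the 160 bases before the RefSeq start (GRCm38.p6 chr8:94810293-94810452, plus strand), printed 5′ to 3′, capitals mark a match to the STAT6 motif, TTC and GAA separated by 4 bases.
Ccl17: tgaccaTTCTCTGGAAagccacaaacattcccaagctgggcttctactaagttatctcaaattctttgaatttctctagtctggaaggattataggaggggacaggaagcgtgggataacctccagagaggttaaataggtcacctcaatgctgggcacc
This match lay 154 to 145 bases before the start, and the shorter STAT spacing matched from 99 to 91 bases before it, left in lower case. Of all promoters 5.85% held the STAT6 letters, and the promoter of Ccl22 held none of the 6 motifs searched. Il4ra, which encodes the IL-4 receptor alpha chain, rose with zymosan in WT (1.19 ± 0.17, adjusted p = 0.000552) and CGD CD101pos cells (1.53 ± 0.18, adjusted p = 1.32e-05) and was lower in CGD CD101neg than CD101pos cells (-0.59 ± 0.17, adjusted p = 0.046). Of the 13 regulators listed with Il4ra, 2 rose with zymosan in WT CD101pos cells, where 3.79% of all genes passed. In CGD CD101pos cells 3 rose and 2 fell, where 12.8% passed. In the CGD sorts 1 of 13 was lower, near the 7.35% of all genes that passed. A link of Il4ra to Ccl17 or Ccl22 was not tested.

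Markers of macrophages moved in the comparisons in which Ccl7 passed, where Ccl8, Ccl12 or both passed as well. Other chemokines, among them Ccl2, Ccl9 and Ccl17, also passed in some of these comparisons. In CGD CD101neg against CD101pos cells, 10 of 14 alveolar macrophage markers and 9 of 15 monocyte and interstitial macrophage markers were lower and none was higher. In CGD against WT CD101pos cells, 6 and 6 were higher and 0 and 1 lower. In CGD against WT CD101neg cells, 6 and 9 were lower and none was higher, and 4 and 8 passed the genotype by subset interaction, all negative. With zymosan 9 alveolar and 5 monocyte and interstitial markers rose in WT CD101pos cells and none fell, and in CGD CD101pos cells 8 and 7 rose and 0 and 2 fell. In naive CGD against WT cells 3 alveolar markers were higher and no monocyte or interstitial marker passed. In the WT sorts none of either list passed. Of all genes, 7.35, 5.3, 12.9, 0.851, 3.79, 12.8, 0.127 and 0.44% passed in these comparisons, in the order given. Mrc1 is in both lists.

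The alveolar list summed to 143 to 157 CPM in WT naive, 160 to 286 in CGD naive, 319 to 465 in WT CD101pos, 616 to 878 in CGD CD101pos, 285 to 434 in WT CD101neg and 353 to 474 CPM in CGD CD101neg libraries. The monocyte and interstitial list summed to 1376 to 1479, 1589 to 1757, 1418 to 1681, 1487 to 1793, 1524 to 1794 and 1356 to 1476 CPM in the same order of groups. A sum weights each gene by its level and need not follow the calls. In CD101neg cells the alveolar sums of CGD and WT libraries overlapped, although 6 of 14 markers were lower in CGD cells. No marker of either list was at 0 in all libraries of a group. C1qb, a complement gene of tissue macrophages, was at 81.6 to 130 CPM in CGD CD101pos, 16.4 to 48.9 in WT CD101pos, 25.0 to 52.3 in WT CD101neg and 9.39 to 12.4 CPM in CGD CD101neg cells, against 8.50 to 15.3 CPM in naive cells. Its interaction was -3.59 ± 0.49 (adjusted p = 0.00226). The part of macrophage RNA in the chemokine values was not tested.

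**Figure D4:**
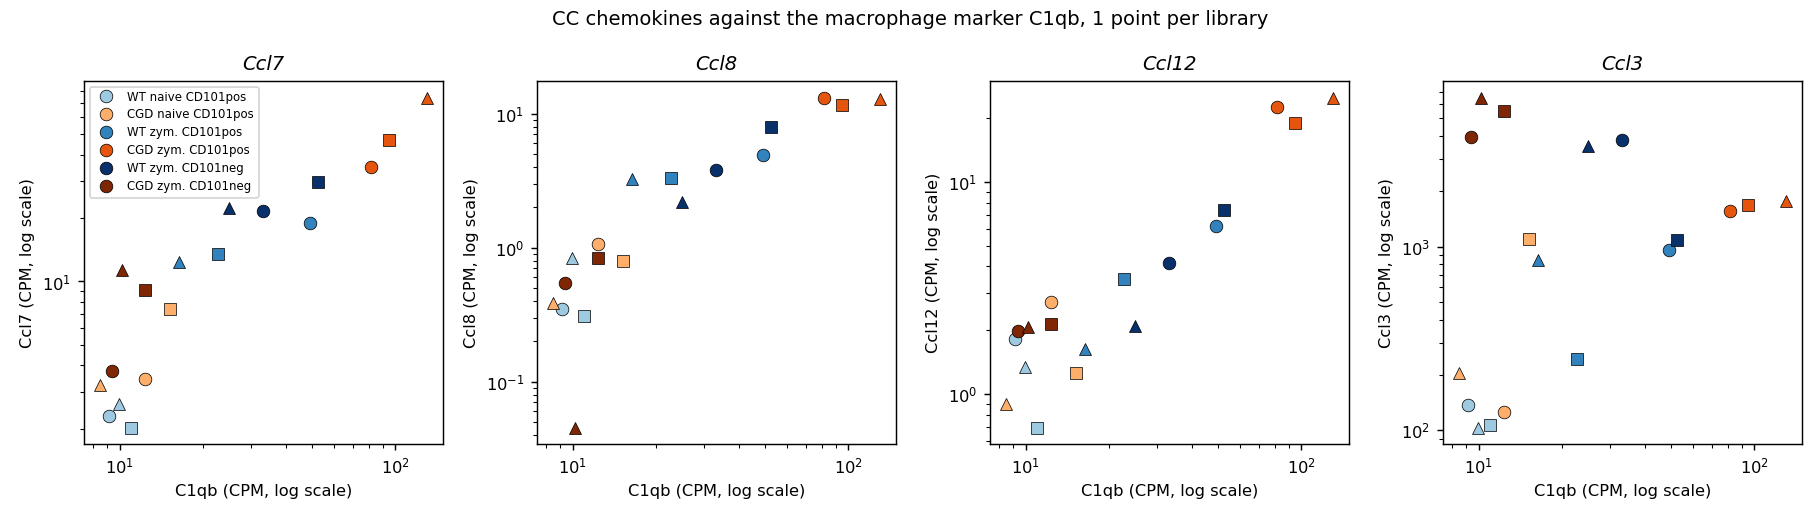
CPM of Ccl7, Ccl8, Ccl12 and Ccl3 (vertical log axes) against CPM of C1qb (horizontal log axis), 1 point per library, coloured by group. Libraries high in C1qb, led by CGD CD101pos zymosan at 81.6 to 130 CPM, are high in Ccl7, Ccl8 and Ccl12, while the CGD CD101neg libraries are low in C1qb and highest in Ccl3.

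Of the other marker lists, dendritic cell markers had 4 of 14 lower in CGD CD101neg against CD101pos cells and 1 higher in CGD against WT CD101pos cells, 3 lower in CGD against WT CD101neg cells, 3 lower with zymosan in WT and 1 higher in CGD CD101pos cells, and 2 negative in the interaction by subset, and summed to 388 to 1658 CPM across libraries. B and T cell markers went the other way from the chemokines in CD101pos cells: 5 of 12 were lower in CGD against WT CD101pos cells and 7 in CD101neg cells, and 6 fell with zymosan in WT and 7 in CGD CD101pos cells. In the WT sorts 1 was higher in CD101neg cells, and 1 was negative in each interaction. They summed to 443 to 471 CPM in WT naive, 311 to 449 in CGD naive, 158 to 182 in WT CD101pos, 48.0 to 75.8 in CGD CD101pos, 124 to 159 in WT CD101neg and 35.2 to 56.0 CPM in CGD CD101neg libraries, and their part in the chemokine values was not tested. Of 6 eosinophil, basophil and mast cell markers tested 2 were lower in CGD against WT CD101neg cells and 1 rose with zymosan in WT CD101pos cells. Of 10 epithelial, endothelial and fibroblast markers 1 was lower in CGD CD101neg against CD101pos cells and 1 fell with zymosan in WT CD101pos cells. Of all genes 7.35% passed in the CGD sorts, 0.44% in the WT sorts, and 5.3 and 12.9% in CGD against WT CD101pos and CD101neg cells. The share was 3.79 and 12.8% with zymosan in WT and CGD CD101pos cells, and 0.851 and 0.32% in the interactions by subset and zymosan. The 1 dendritic cell marker of 14 in CGD against WT CD101pos cells was near the 5.3% share. Neutrophil markers had no call in any comparison. Their sum was highest among WT libraries in replicate 2 of each zymosan sort, at 90245 CPM in CD101pos and 89833 CPM in CD101neg cells. These were the libraries with the lowest Ccl3 and Ccl4 within each WT zymosan sort. WT naive libraries, lower still in Ccl3 and Ccl4, had sums of 33779 to 35021 CPM. The CGD CD101neg libraries, highest in both genes, had sums of 58475 to 134397 CPM. The part of this sum in the Ccl3 and Ccl4 values was not tested. Leaving out both libraries, a choice made after seeing the data, gave 2 chemokines for CGD against WT CD101neg, 4 for CGD against WT CD101pos and 8 for zymosan against naive WT CD101pos cells.

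Besides the 10 chemokines, 11 other CC ligands were in the table and 7 could be tested. Only 3 of them passed in any comparison, all higher in the CGD or zymosan cells. In CGD against WT cells 2 of the 7 passed in CD101pos and 1 in CD101neg cells, where 5.3 and 12.9% of all genes passed. The 1 of 7 is near that share. With zymosan 2 of the 7 passed in CGD CD101pos cells, where 12.8% of all genes passed. Ccl20, a CCR6 ligand of mucosal surfaces, was at 8, 38 and 18 counts in CGD CD101pos and 6, 14 and 12 counts in CGD CD101neg replicates 1, 2 and 3 after zymosan, and at 0 to 2 counts in every other library. It passed in CGD against WT CD101pos cells (adjusted p = 0.0194), CGD against WT CD101neg cells (adjusted p = 0.0302) and CGD CD101pos cells with zymosan (adjusted p = 0.00334). Ccl5, which attracts T cells and monocytes, was higher in CGD than WT CD101pos cells (1.34 ± 0.29, adjusted p = 0.0115), at 10.7 to 19.1 CPM in CGD libraries against a WT mean of 5.55 ± 0.90 CPM (SD, n = 3). Ccl24, an eotaxin that binds CCR3, rose with zymosan in CGD CD101pos cells (3.11 ± 0.55, adjusted p = 0.000922) from 0.0989 to 0.358 CPM to 1.14 to 3.25 CPM.

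Of 15 CC receptor and scavenger genes 14 could be tested. Ccr1, a receptor shared by Ccl3, Ccl6, Ccl7 and Ccl9, passed in no comparison, and its group means ran from 2298 to 3868 CPM. In CGD against WT CD101neg cells 5 receptor genes were lower, including Ccr7, which guides dendritic cells to lymph nodes (-1.99 ± 0.41, adjusted p = 0.00397), Ccr2, the receptor of Ccl2, Ccl7 and Ccl12 (-1.48 ± 0.32, adjusted p = 0.0055), Ccr3 of eosinophils (-1.49 ± 0.37, adjusted p = 0.0122) and Ackr4, a scavenger (-4.03 ± 1.15, adjusted p = 0.027). In the same cells 1 receptor gene was higher, and 12.9% of all genes passed. In CGD against WT CD101pos cells 1 passed, Ackr1 (4.43 ± 1.16, adjusted p = 0.0314), a scavenger of red cells and venules. Of all genes 5.3% passed there, and 1 of 14 is near that share. Ccr7 was also lower in CGD CD101neg against CD101pos cells (-2.12 ± 0.41, adjusted p = 0.00619). With zymosan Ccr7 fell in WT CD101pos cells (-1.56 ± 0.40, adjusted p = 0.0316). Ccr7 also passed the genotype by subset interaction (-2.50 ± 0.56, adjusted p = 0.0431).

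Among 20 regulators of NF-kB, MAPK signalling and mRNA decay, 4 were higher and 2 lower in CGD against WT CD101neg cells, and 1 higher and 1 lower in CGD against WT CD101pos cells, where 12.9% and 5.3% of all genes passed. Nfkb1 led both comparisons, and Fos, a subunit of AP-1, was lower in both (-1.12 ± 0.22, adjusted p = 0.00247 in CD101neg and -0.99 ± 0.21, adjusted p = 0.0106 in CD101pos cells). With zymosan 8 rose and 1 fell in CGD CD101pos cells and 3 rose in WT CD101pos cells, where 12.8% and 3.79% of all genes passed. Among 13 regulators of the IL-4, GM-CSF and interferon-gamma responses, 2 were higher and 1 lower in CGD against WT CD101neg cells and 1 higher and 1 lower in CD101pos cells. Irf1, a transcription factor induced by interferons, was higher in CGD cells of both sorts (2.18 ± 0.28, adjusted p = 8.9e-05 in CD101neg and 1.57 ± 0.28, adjusted p = 0.00296 in CD101pos cells).

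The 10 chemokines fell into sets whose levels went together over the 18 libraries. These are Pearson correlations of log2 CPM, given as a description. The points share their groups, so each is followed by the correlation of the deviations from the group means. Ccl3 and Ccl4 had 0.99 and 0.99, Ccl4 and Ccl9 0.97 and 0.83, and Ccl17 and Ccl22 0.95 and 0.85. Ccl2 and Ccl7 had 0.92 and 0.86. Ccl8 and Ccl12, which share the pattern between groups, had 0.82 and 0.45, so they went together less within groups. Ccl6 stood apart, with -0.46 to -0.01 against the other 9 genes.

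**Figure D5:**
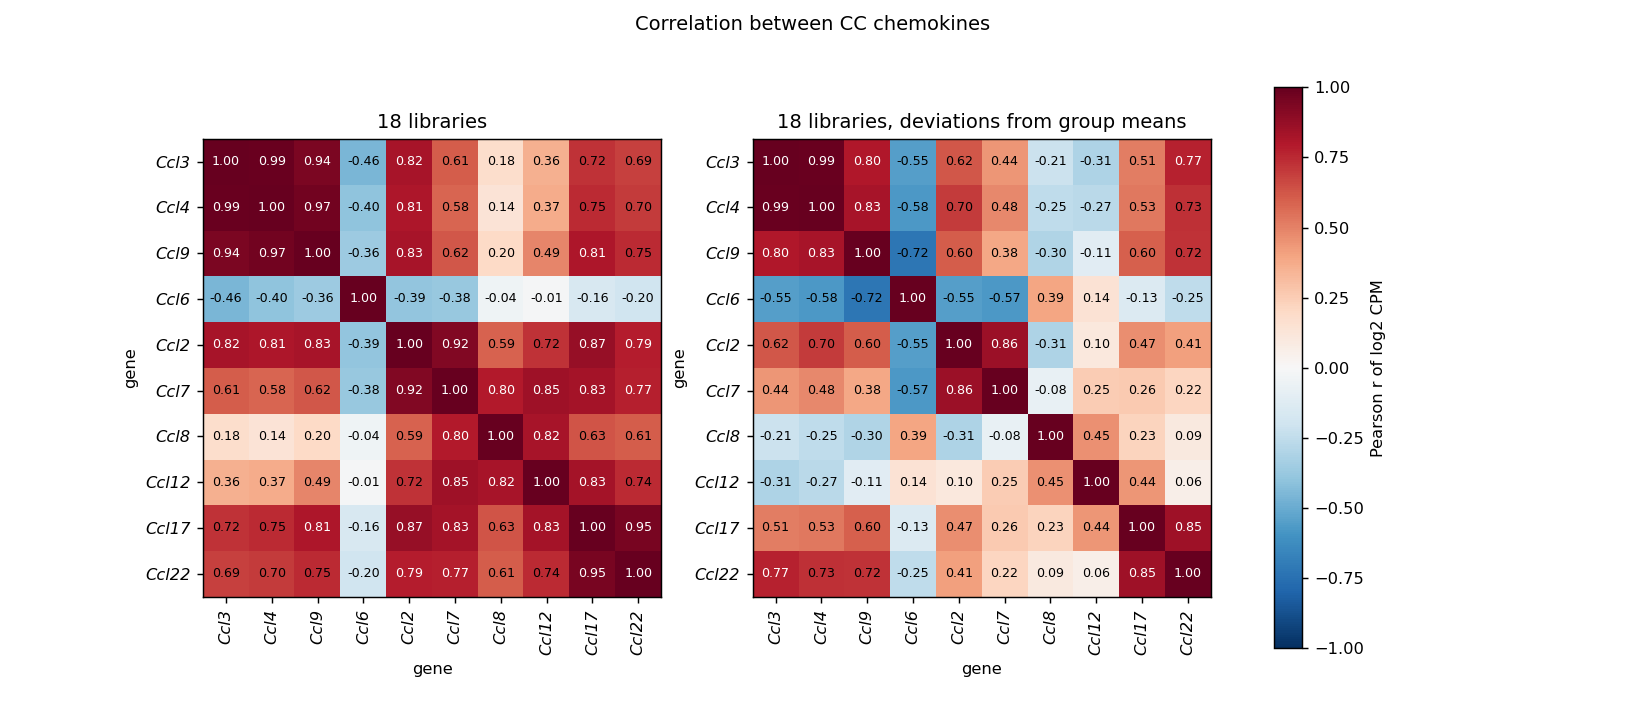
Pearson correlations between the 10 CC chemokines over 18 libraries, from log2 CPM on the left and from deviations from the group means on the right, coloured from -1 to 1. Ccl3, Ccl4 and Ccl9 are close in both panels (Ccl3 with Ccl4 at 0.99 in each), and Ccl6 is negative with Ccl9 in both (-0.36 and -0.72).

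Outside the 10, the genes with the most similar pattern over the 18 libraries, among named genes with a mean of at least 10 CPM, also differed by set. Rbpj, a transcription factor of Notch signalling, was first for Ccl3 and Ccl4 (r = 0.99 for each). For Ccl9 the first was St3gal1 (0.98), followed by Rbpj and Pycard (0.97 each). Ccl3 also had Ralgds and Atp6v0c (0.99 each), and Ccl4 had Fmnl2 and N4bp1 (0.98 each). Ccl2 had Ier3 (0.94), Saa3 (0.93) and Rab7b (0.92), and Ccl6 had Tmem219 (0.93), Usp38 (0.93) and Dph3 (0.92). The nearest to Ccl8 were Mrc1 (0.91), Pf4 (0.91) and C1qb (0.90), and to Ccl12 C1qb (0.93), Cxcl13 (0.92) and Cyp2b10 (0.90). For Ccl7 they were Cxcl13 (0.94), Dab2 (0.93) and F13a1 (0.92). Of these, Mrc1, C1qb and F13a1 are in the macrophage marker lists above. Ccl17 had Serpina3n (0.95), Lpl (0.91) and Dab2 (0.91), and Ccl22 had Mydgf (0.92), Cd302 (0.89) and Ffar2 (0.88). Within groups the correlation of Rbpj with Ccl3 was 0.95. Those of Ccl8 were 0.37 with Mrc1, 0.51 with Pf4 and 0.43 with C1qb. Those of Ccl12 were 0.68 with C1qb, 0.56 with Cxcl13 and 0.85 with Cyp2b10. Those of Ccl7 were 0.53 with Cxcl13, 0.63 with Dab2 and 0.25 with F13a1.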

How the data were processed

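RNA of sorted lung neutrophils was measured in 18 libraries, 3 in each of 6 groups. The authors deposited 1 table of raw, unnormalized read counts by gene. STAR 2.5.1a, Subread and featureCounts 1.4.6-p5 are named in the submitters' processing notes. For the build, the annotation and strandedness of that counting, nothing was given in the sources used here. The kit was a SMARTer kit, per the labels' protocols. The table's 276 repeated lines were identical and were counted once, leaving 40481 gene IDs.

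Counts were tested with edgeR 4.0.16 (R 4.3.3): TMM scaling, filterByExpr by group (16575 genes kept, at least 99.97% of the counts of each library), a robust quasi-likelihood fit of all 18 libraries with 12 residual degrees of freedom, and Benjamini-Hochberg adjustment over all genes tested. The threshold was 0.05. Alternatives were other scalings, DESeq2 1.42.0, no filter, replicate blocks, only the groups compared, and leaving out each library. The procedure was tested on simulated data.

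Whether replicate numbers pair libraries was checked from deviations from group means. Same-numbered WT CD101pos and CD101neg zymosan libraries had r = 0.487, 0.425 and 0.312, each the best for its number, so these sorts were taken as paired. This pairing comes from the data and not from a label.

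All 10 members are named whatever their result; of each other list, at most 4 genes past the threshold per comparison by lowest adjusted p are eligible; and the 3 best correlated genes are given for members. Members and lists were chosen with earlier results of these data known. Gene positions are from GENCODE M21 (GRCm38), and promoters from RefSeq (GRCm38.p6), which matched 7 of 10 members. Ccl2, Ccl4 and Ccl7 had no promoter entry. Of the receptor list, 1 gene is not reported here.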

Additional observations from a re-analysis of the deposited data

Results flagged for a closer look

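For 3 chemokines the difference between CD101neg and CD101pos cells after zymosan itself differed between genotypes by a direct test, edgeR's interaction term with Benjamini-Hochberg adjustment. The CGD difference minus the WT difference was -3.40 for Ccl7 (adjusted p = 0.00472), -4.99 for Ccl8 (adjusted p = 0.00769) and -3.68 for Ccl12 (adjusted p = 0.0177) on the log2 scale. In each case all 3 CGD CD101neg libraries were below all 3 CGD CD101pos libraries, while the WT differences were 0.71, 0.27 and 0.26 and did not pass without a replicate block. With the block by genotype and number the WT difference of Ccl7 passed (0.71, adjusted p = 0.0145). In the unblocked fit without WT CD101neg replicate 2, the WT differences of Ccl8 and Ccl12 turned negative (-0.36 and -0.28). C1qb had an interaction of -3.59 (adjusted p = 0.00226), and its part in these results was not tested.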

How the results depend on the processing

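None of 30 chemokine calls reversed its direction under any alternative run, and 17 passed under all of them. Of all 90 chemokine differences 20 changed sign under at least 1 alternative, none of them a call. The Ccl4 interaction by subset was -0.40 with library size only, -0.00965 without the filter, -0.0575 without both WT zymosan libraries numbered 2 and -0.35 to 0.45 without 1 library, and that of Ccl3 was -0.76 to 0.0283 without 1 library. The WT sort differences were -0.45 (Ccl8) and -0.33 (Ccl12) without both libraries numbered 2, and -0.36 to 0.61 and -0.28 to 0.83 without 1 library. Counts of chemokines past the threshold moved as follows. With library size as the only scaling, CGD against WT gave 2 in CD101pos and 0 in naive cells. Without the low-count filter, CGD against WT CD101pos cells gave 3 and WT zymosan against naive 3. With only the groups compared, naive CGD against WT gave 0 and CGD CD101neg against CD101pos 7. With a replicate block by number the naive count was 0. With a replicate block by genotype and number it was 5 for the WT sorts, 9 for the CGD sorts (Ccl3, Ccl4 and Ccl9 higher, the others lower) and 6 for their interaction. CGD same-numbered sorts had r = 0.236, 0.0245 and 0.260, each best with its own number, a hint from the data; they share only a number. No other comparison's chemokine count moved beyond 1.5 times with a block. Leaving out 1 library gave 1 to 6 (CGD against WT CD101pos), 0 to 1 (naive), 0 to 1 (WT sorts), 2 to 8 (WT zymosan), 2 to 3 (CGD against WT CD101neg), 3 to 4 (CGD sorts), 7 to 9 (CGD zymosan) and 2 to 4 (interaction by subset).

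Counts over all genes, from 2139, 878, 21, 73, 1218, 629, 2128, 141 and 53 for CGD against WT CD101neg, CD101pos and naive, the WT and CGD sorts, WT and CGD zymosan, and the interactions by subset and zymosan, moved more. Library size only gave 3985 (CD101neg), 9 (naive) and 13 (interaction by zymosan). DESeq2 gave 1405 (CD101pos), 110 (naive), 329 (WT sorts), 2136 (CGD sorts), 1222 (WT zymosan), 589 (interaction by subset) and 261 (interaction by zymosan). No filter gave 140 (WT sorts), 327 (interaction by subset) and 119 (interaction by zymosan). The replicate block by genotype and number gave 1741 (WT sorts), 3924 (CGD sorts) and 2229 (interaction by subset). Only the groups compared gave 1062 (CD101neg), 572 (CD101pos), 6 (naive), 0 (WT sorts) and 62 (interaction by subset). Leaving out 1 library gave 1164 to 1938, 320 to 1125, 2 to 64, 3 to 400, 321 to 1185, 263 to 560, 1170 to 1891, 43 to 497 and 5 to 54 in the order above.

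Scaling by library size alone moved the median of all genes by up to -0.57 (CGD against WT CD101neg), and the share of calls that were higher went from 51.7 to 10.4% there, 52.3 to 38.6% in CD101pos cells, 44.5 to 6.59% in the CGD sorts, 76.9 to 30% in WT and 55.5 to 26.5% in CGD zymosan, 21.3 to 0.61% in the interaction by subset and 50.9 to 69.2% in that by zymosan. The cause of these changes was not tested. Depth limits Ccl8 most, at 2 counts in 1 CGD CD101neg library.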
